A study of Rattus norvegicus with 4 samples.

Results

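Meg3 (maternally expressed 3), an imprinted long noncoding RNA, and the transcripts around it were followed in rat astrocytes after a short deprivation of oxygen and glucose. The deposited tables list Meg3 under its older name RGD1566401. The set comprised the 10 transcripts with that name and every other transcript lying within 1 Mb of their span on chromosome 6, which gave 44 of the 20524 transcripts listed. Of the 44, 7 lay before Meg3 in coordinate order (called upstream here), 10 were Meg3 itself, 6 carried other names inside the Meg3 span and 21 lay after it (downstream). Membership was set by name and position, and the rule used no measured value. The members were chosen with earlier results of these data known.

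RNA came from astrocytes of the cerebral cortex of newborn Wistar rats, under 24 h old. The cells grew on coverslips placed over neuron cultures and held apart from them by paraffin dots. The OGD group (2 libraries) had spent 45 min in DMEM without glucose at 1% oxygen, followed by 24 h of reoxygenation in normal medium. The labels name this treatment ischemic preconditioning. The control group (2 libraries) was untreated, came from the same kind of coculture and carried no other agent. The labels do not say whether the libraries of a group came from separate cultures, so the p-values cover no more than the spread among the libraries at hand, and that spread may be technical. In RNA from whole cultures, fewer cells of a type and less RNA per cell cannot be told apart.

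Meg3 belongs to the imprinted Dlk1–Dio3 domain, in which the protein genes Dlk1, Rtl1 and Dio3 are expressed from the paternal chromosome, and Meg3 and the noncoding RNAs after it from the maternal one. In the mouse the maternal RNAs include Rian, a host of small nucleolar RNAs, and Mirg, a host of microRNAs, and imprinting of the domain rests on DNA methylation between Dlk1 and Meg3. Meg3 is abundant in brain. In human cells it is known to raise p53 activity, and mouse work has described its binding to the Polycomb complex PRC2.

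The promoter of rat Meg3 is shown because all Meg3 readings below start from this gene. It is the RefSeq sequence of build GRCr8, chr6:134273806-134274105, plus strand, with 250 bases before and 50 bases from the annotated start. These coordinates are of another build than those of the deposited tables. Capitals mark a match to the cAMP response element core TGACGTCA, 66 bases before the start, and the stretch holding matches to the TATA box letters TATATAA on both strands, the plus-strand match 36 bases before it.
Meg3 promoter: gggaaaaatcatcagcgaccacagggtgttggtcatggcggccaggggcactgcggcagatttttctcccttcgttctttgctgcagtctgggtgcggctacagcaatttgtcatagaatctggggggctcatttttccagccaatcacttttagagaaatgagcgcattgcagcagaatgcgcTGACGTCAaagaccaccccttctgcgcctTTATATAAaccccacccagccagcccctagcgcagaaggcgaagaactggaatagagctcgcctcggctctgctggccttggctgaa
Searched on both strands, TGACGTCA was present in 525 of 27457 RefSeq rat promoter windows of this length (1.91%) and TATATAA in 1071 (3.9%). The 300 bases held 13 CpG dinucleotides and were 54.33% G and C. A match describes letters only, and no binding or methylation was measured here.

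RefSeq GRCr8 places 59 microRNA genes between Dlk1 and Dio3, 58 of them after Meg3, and 84 small nucleolar RNA genes after Meg3. Mature microRNAs were not analysed here, and these sequences are given to show what the domain encodes. The mature forms of miR-770 lie inside the RefSeq Meg3 gene. The 3 others share a seed (bases 2 to 8, in capitals), the largest such group among the 100 mature sequences matched, which hold 93 different seeds. All 5 are on the plus strand.
rno-miR-770-5p (chr6:134298094-134298115): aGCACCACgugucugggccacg
rno-miR-770-3p (chr6:134298129-134298145): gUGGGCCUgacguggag
rno-miR-494-5p (chr6:134550130-134550151): aGGUUGUCcguguugucuucuc
rno-miR-496-5p (chr6:134575062-134575081): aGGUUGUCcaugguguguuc
rno-miR-410-5p (chr6:134579773-134579793): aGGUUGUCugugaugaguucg

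Each library held 2513804 to 2646300 counts on listed transcripts, which was 9.98% to 10.6% of the library total behind the deposited FPKM values (a level adjusted for both the length of a transcript and the size of the library). A level of 3 counts corresponded to 1.10 to 1.25 CPM. CPM are counts scaled with TMM factors to the library's counts on the transcripts, or loci, that passed the filter on low counts. Libraries of the same replicate number were more alike (Pearson r = 0.888 and 0.890 across log2 CPM of transcripts, which are not independent replicates) than libraries of the same group (0.863 and 0.865). Every pair of libraries differed beyond counting noise, with chi-square per degree of freedom of 11.1 to 19.8. Astrocyte markers were listed for 5 of 10 names, and these loci are noncoding transcripts at the genes. The 5 summed to 64.4 and 33.8 CPM in OGD libraries 1 and 2, against 50.9 and 34.3 CPM in control libraries 1 and 2. Gfap, the astrocyte filament protein, carried most of that, while Glul, glutamine synthetase, was at 0 in 3 of the 4 libraries.

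Meg3 as a whole stood at similar levels after OGD and in control cells. Its 10 transcripts together had 2307 and 1422 counts in OGD libraries 1 and 2, against 2129 and 1387 counts in control libraries 1 and 2. Scaled, this was 869 and 593 CPM after OGD, against 775 and 553 CPM in controls. The groups overlapped, since control library 1 lay above OGD library 2, and both libraries numbered 1 lay above both numbered 2. The mean level was 731 ± 195 CPM after OGD and 664 ± 157 CPM in controls (SD, n = 2 each). By mean count Meg3 ranked 166th of 17283 loci, so the comparison rests on one of the better counted loci of the tables.

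The summed log2 fold change of OGD over control was 0.14 ± 0.28 (SE), with adjusted p = 1.00 in edgeR's quasi-likelihood test over 9579 loci (unadjusted p = 0.646). That is a fold of 1.10 with an approximate 95% interval of 0.659 to 1.84. The interval holds both a lower and a higher level after OGD. Without OGD library 1 the log2 fold change was -0.15, and without control library 2 it was -0.08. Its direction therefore rested on single libraries. The per-length level summed over the 10 overlapping transcripts was 23.2 and 13.6 FPKM after OGD, against 22.5 and 14.5 FPKM in controls.

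Transcripts i and b made up almost all Meg3 counts, 95.9 ± 0.793% after OGD and 94.2 ± 0.715% in controls (SD, n = 2 each). Transcript i (NONRATT024625.2, listed as unspliced, at 133663396 to 133667149 on chromosome 6 in the tables' coordinates, 3754 bases) had 1035 and 598 counts after OGD, against 1173 and 680 counts in controls. Transcript b (NONRATT024628.2, at 133667259 to 133682473, 6449 bases) had 1165 and 774 counts after OGD, against 844 and 620 counts in controls. The transcripts do not overlap each other, and transcript b begins just after transcript i ends.

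Transcript b was the higher of the pair by count after OGD, and transcript i in controls. Per length, transcript i was the higher in all 4 libraries, at 11.1 and 6.37 FPKM after OGD and 12.5 and 6.87 FPKM in controls. Transcript b stood at 7.25 and 4.80 FPKM after OGD, against 5.25 and 3.65 FPKM in controls. On the scaled level, transcript b did not overlap between groups, with 441 and 323 CPM after OGD, against 309 and 249 CPM in controls. Its log2 fold change was 0.46 ± 0.25 (SE), adjusted p = 1.00 in edgeR's test (unadjusted p = 0.133). The value was 0.24 without OGD library 1 and 0.66 without OGD library 2, the lowest and highest with a library left out. For transcript i the log2 fold change was -0.13 ± 0.35 (SE), and the same test gave adjusted p = 1.00 (unadjusted p = 0.729).

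The split between them also differed by group. The ratio of transcript b to transcript i counts was 1.13 and 1.29 in OGD libraries, against 0.720 and 0.912 in control libraries. As shares of all Meg3 counts, transcript b took 52.5 ± 2.78% after OGD and 42.2 ± 3.58% in controls, and transcript i took 43.5 ± 1.99% after OGD and 52.1 ± 4.29% in controls (SD, n = 2 each). The ratio was 1.49-fold higher after OGD, without overlap. This pair was picked after its values were seen, and the pattern is common in the tables. Of 641 loci with at least 2 transcripts of 20 or more counts, the split between the top 2 did not overlap between groups at 215 (33.5%), and at 124 (19.3%) it was also at least as far apart as at Meg3. The exact permutation test of 2 libraries against 2 cannot go below p = 0.333.

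The other Meg3 transcripts were sparse. Transcript j (NONRATT024619.2), at the start of the gene, had 29 and 0 counts after OGD, against 43 and 31 counts in controls. It was the only tested member of the 44 with both OGD libraries below both control libraries. Its log2 fold change of -1.33 ± 1.36 (SE) had adjusted p = 1.00 in edgeR's test, and without OGD library 2 the value was -0.36. Without OGD library 1, which leaves the OGD group at 0 counts, the fitted value was -8.16 with adjusted p = 0.289, and its size then depends on the prior count of the fit. Transcript g (NONRATT024617.2), which overlaps transcript j over nearly its whole length, had 22 and 12 counts after OGD, against 23 and 2 counts in controls. Reads could have been split between such overlapping transcripts when they were counted.

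Transcript h (NONRATT024630.2) had 25 and 7 counts after OGD, against 24 and 21 counts in controls, and transcript d (NONRATT024626.2) had 14 and 18 counts after OGD, against 13 and 20 counts in controls. Both overlapped between groups. Transcripts a, e, p and s stood at 0 to 9 counts in every library and did not pass the filter on low counts.

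**Figure D1:**
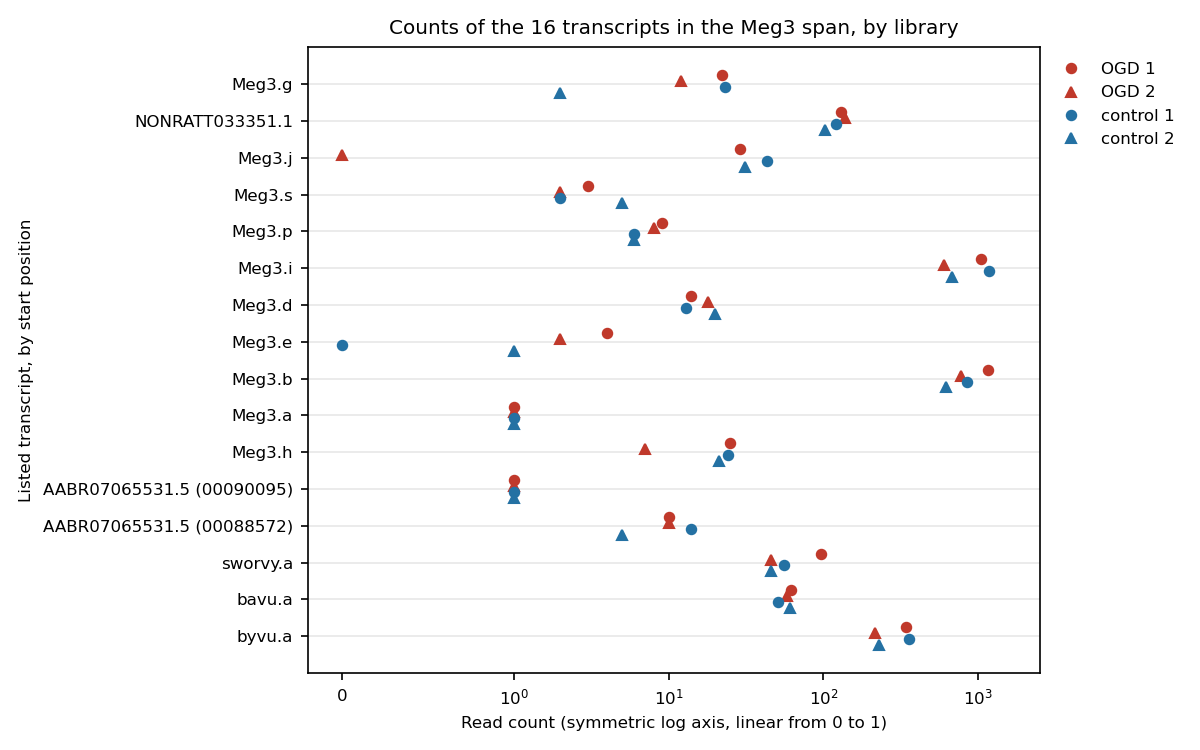
Read counts of the 16 transcripts in the Meg3 span (horizontal, symmetric log axis), in start order down the page, with 1 point per library: OGD red, control blue, replicate 1 circles, replicate 2 triangles. Transcripts i and b stand above all others, and the libraries numbered 2 lie to the left of those numbered 1 at both within each group.

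The 6 transcripts with other names inside the Meg3 span summed to 243 and 195 CPM after OGD, against 219 and 178 CPM in controls. None of them is named as Meg3 in the tables, and 3 are listed as unspliced. The most counted, byvu (NONRATT024634.2), had 343 and 215 counts after OGD, against 356 and 229 counts in controls. Its log2 fold change was -0.02 ± 0.31 (SE), with adjusted p = 1.00 in edgeR's test. Its values paired by replicate number, like those of transcript i.

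NONRATT033351.1 runs over the whole span, from 133658937 to 133691129, as a spliced transcript of 1889 bases that overlaps the 15 others there. It had 130 and 137 counts after OGD, against 121 and 102 counts in controls, and the groups did not overlap. Its log2 fold change was 0.32 ± 0.22 (SE), adjusted p = 1.00 in edgeR's test (unadjusted p = 0.222), and with each library left out in turn it was 0.21 to 0.45.

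The unspliced sworvy (NONRATT024632.2) had 96 and 46 counts after OGD, against 56 and 46 counts in controls, so that OGD library 1 stood above the other 3. Its neighbour bavu (NONRATT024633.2) had 62 and 58 counts after OGD, against 51 and 61 counts in controls, with overlap. Of the transcripts listed as AABR07065531.5, 1 had a count of 1 in every library, and the other had 10 and 10 counts after OGD, against 14 and 5 counts in controls.

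As a share of the Meg3 counts of the same library, these 6 transcripts came to 27.8% and 32.8% after OGD, against 28.1% and 32.0% in controls. Their proportion to Meg3 was thus nearly the same in OGD and control libraries of a number.

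Downstream of Meg3, 21 transcripts ended within 242 kb of its start, and none lay beyond that up to the edge of the window. Together they had 244 and 112 CPM after OGD, against 243 and 87.5 CPM in controls. The mean was 178 ± 93.1 CPM after OGD and 165 ± 110 CPM in controls (SD, n = 2 each), and the ratio of means, OGD over control, was 1.08. Library 1 stood above library 2 in both groups, by more than in Meg3.

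A chain of 13 overlapping transcripts held most of these counts. It spans 26802 bases (133774616 to 133801417), 116 to 142 kb from the Meg3 start, and had 505 and 205 counts after OGD, against 492 and 181 counts in controls. Its longest transcript, listed as n18 (NONRATT024651.2, 4700 bases), had 173 and 74 counts after OGD, against 168 and 67 counts in controls. The log2 fold change of n18 was 0.13 ± 0.58 (SE), with adjusted p = 1.00 in edgeR's test. Its OGD and control values nearly coincided within each replicate number.

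Within the chain, beeto.g (NONRATT024656.2, 948 bases) showed the smallest p of all 29 tested members. It had 100 and 17 counts after OGD, against 17 and 2 counts in controls. On the scaled level this was 37.9 and 7.10 CPM after OGD, against 6.21 and 0.803 CPM in controls, without overlap, although OGD library 2 and control library 1 lay close together. The fold of 6.27 had an approximate 95% interval of 0.666 to 58.9, and edgeR gave adjusted p = 1.00 (unadjusted p = 0.0868). Its log2 fold change of 2.65 ± 1.20 (SE) was 1.02 without OGD library 1 and 4.73 without control library 1.

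Other chain transcripts pointed in various directions. The transcript n15 (NONRATT024657.2) had 0 and 0 counts after OGD, against 4 and 11 counts in controls, and n12 (NONRATT024644.2) had 28 and 12 counts after OGD, against 63 and 12 counts in controls. Of the beeto transcripts, k (NONRATT024648.2) had 12 and 30 counts after OGD, against 52 and 20 counts in controls, while c had 0 and 1 counts after OGD, against 6 and 4 counts in controls. With 9 or more neighbours overlapping each of these, counts of 1 transcript need not belong to it alone. The sum over the chain is free of reads moving between its members, and it differed between groups by a ratio of means of 1.10.

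Several chain members were much lower in libraries numbered 2 than in libraries numbered 1. The transcript n16 (NONRATT024653.2) had 50 and 1 counts after OGD, against 43 and 10 counts in controls. For n14 (NONRATT024649.2) these were 42 and 7 counts after OGD, against 42 and 4 counts in controls. The opposite held for n13 (NONRATT024645.2), with 0 and 19 counts after OGD, against 0 and 8 counts in controls. The remaining chain members, barto (29 and 19 counts after OGD, against 28 and 12 in controls), buto (23 and 9 after OGD, against 32 and 13 in controls), beeto.f (13 and 0 after OGD, against 11 and 3 in controls) and beeto.e (35 and 16 after OGD, against 26 and 15 in controls), were higher in the library numbered 1 of each group.

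The 8 downstream transcripts outside the chain summed to 138 and 63 counts after OGD, against 172 and 37 counts in controls. Between Meg3 and the chain, LOC691169 transcript c (NONRATT024638.2) had 34 and 16 counts after OGD, against 30 and 11 counts in controls, and byto (NONRATT024640.2) had 36 and 13 counts after OGD, against 55 and 5 counts in controls. After the chain, gyvu (NONRATT024660.2) had 24 and 9 counts after OGD, against 32 and 11 counts in controls. All 3 overlapped between groups and were higher in libraries numbered 1.

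**Figure D2:**
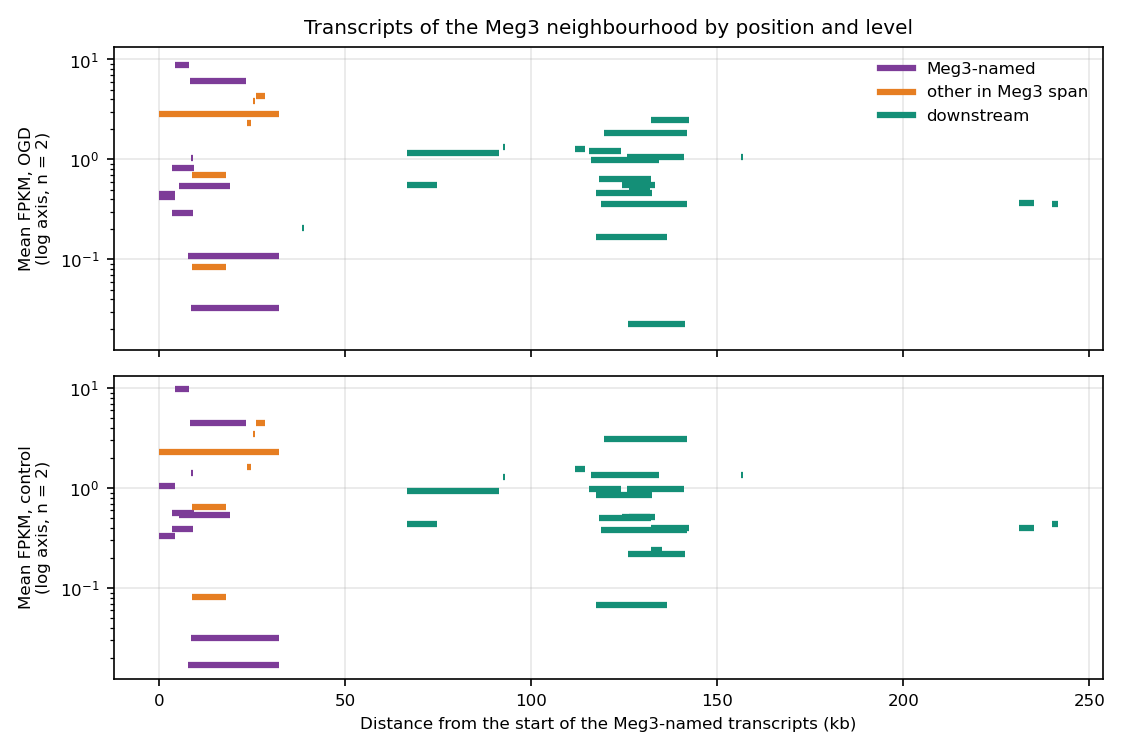
Position (horizontal, kb from the start of the Meg3-named transcripts) and mean FPKM (vertical, log axis, n = 2 libraries per group) of the Meg3-span and downstream transcripts, OGD above and control below. Each bar spans a transcript from start to end; the upstream transcripts are not drawn, nor is a transcript with a mean of 0 in its panel. The chain of overlapping transcripts lies 116 to 142 kb from the Meg3 start, and transcript i is the highest bar in both panels.

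Upstream, the 7 transcripts were barely detected, with 48 and 33 counts in all after OGD, against 55 and 30 counts in controls. They include transcripts at 2 named protein genes. Slc25a29, which encodes a mitochondrial carrier of basic amino acids, had 3 and 10 counts after OGD, against 10 and 7 counts in controls. Begain, which encodes a partner of synaptic guanylate kinases, had 2 transcripts. Its transcript e had 8 and 5 counts after OGD, against 14 and 7 counts in controls, and its transcript d had 0 or 1 count in every library. The transcript nearest to Meg3 on this side, storvy, was at 0 in all 4 libraries.

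Of the 29 members that passed the filter on low counts, 0 passed an adjusted p of 0.05 in edgeR's quasi-likelihood test, against 1 of 10892 transcripts overall (0.00918%). At an unadjusted p of 0.05 the count was 0 of 29, against 292 transcripts overall (2.68%). DESeq2, which kept 36 members, also called 0 of them, against 85 of 14042 transcripts overall (0.605%). At an unadjusted p of 0.05 it gave 2 of the 36 (beeto.g and n15, the second not among the 29), against 314 of the same 14042 (2.24%). Tested members had log2 fold changes above 0 at 16 and below 0 at 13, with a median of 0.13, beside 49.4% above 0 and a median of -0.0046 over all tested transcripts. Over all 44 members, 24 had a higher mean after OGD, 19 a lower one and 1 was at 0.

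The groups did not overlap at 4 of the 29 tested members, 3 with OGD above control (transcript b, NONRATT033351.1 and beeto.g) and 1 with OGD below (transcript j). Over all tested transcripts OGD was above control without overlap at 14.2% and below at 14.1%. The members' share lay below that background, which is not a result apart from the order by replicate number given below. With 4 libraries, a transcript cannot be without overlap both by group and by replicate number. The 15 members outside the test had at most 19 counts in any library.

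**Figure D3:**
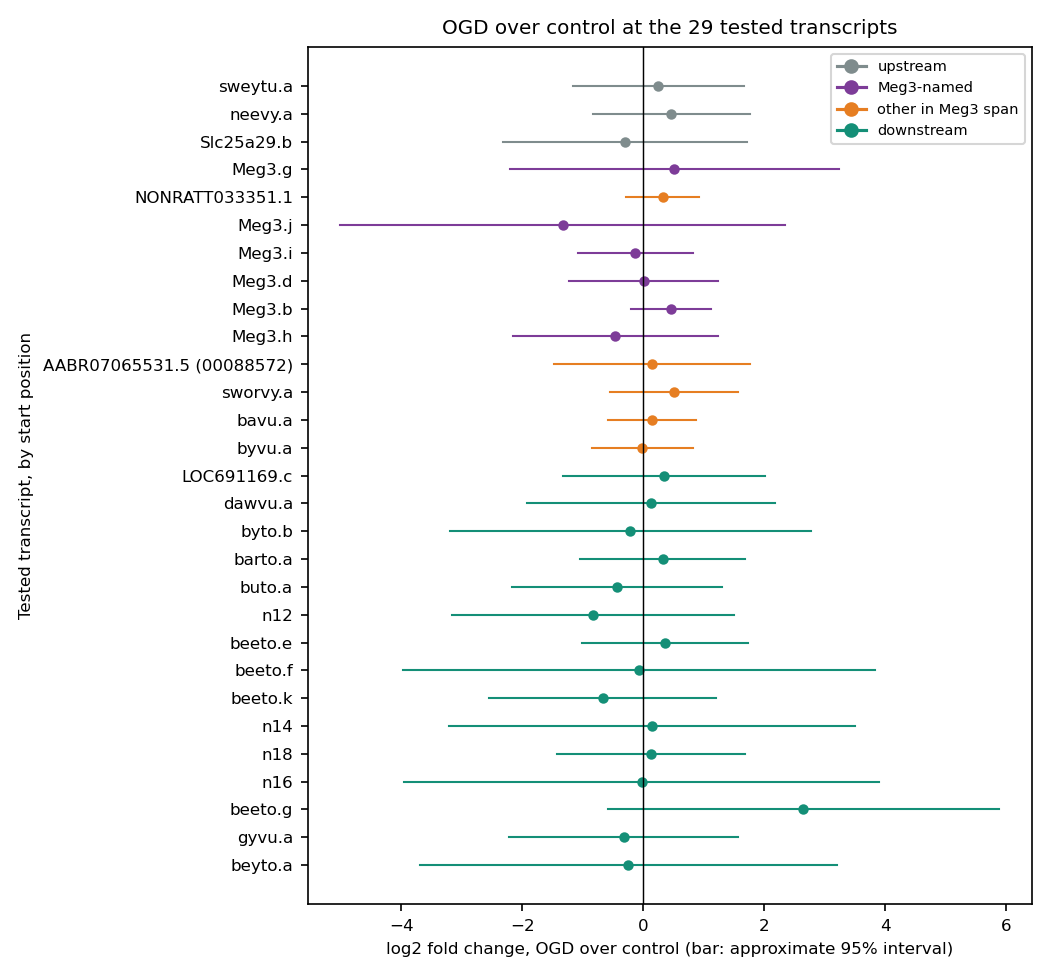
Log2 fold change of OGD over control (horizontal; bars are approximate 95% intervals) at the 29 tested transcripts in start order down the page, coloured by position. Every interval includes 0; beeto.g lies farthest right at 2.65 and transcript j farthest left at -1.33.

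The replicate number separated the libraries at the neighbourhood more than OGD did. At 19 of the 29 tested members (65.5%) both libraries numbered 1 lay above both numbered 2, and at 2 both lay below. Over all tested transcripts the shares were 23.8% above and 22.9% below. Downstream of Meg3, 12 of 15 tested members lay above and 0 below. Of the 44 members, 33 overlap another member and could share reads with it, so the members cannot be taken as independent of each other.

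The median ratio of libraries numbered 1 to libraries numbered 2 was 2.54 over the 15 tested downstream members, with a range of 1.15 to 7.92, against 1.01 over all tested transcripts. For the summed levels, this ratio was 2.44 downstream, 1.44 at Meg3, 1.24 at the other transcripts in its span and 1.48 upstream. As a share of Meg3 counts in the same library, the downstream transcripts came to 27.9% and 18.8% after OGD, against 31.2% and 15.7% in controls. The OGD mean of 23.4 ± 6.38% and the control mean of 23.5 ± 10.9% (SD, n = 2 each) were nearly equal, while libraries 1 and 2 stood apart in both groups. This pattern was noticed in the data, and the labels do not say what a replicate number shares.

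The marker sums of other cell types, endothelial excepted, were lower in both libraries numbered 1 than in both numbered 2. The astrocyte sum had the opposite order, that of the neighbourhood. Fibroblast and meningeal markers (3 of 7 names listed, none at 0) summed to 185 and 1445 CPM in OGD libraries 1 and 2, against 162 and 1620 CPM in control libraries 1 and 2, which is the reverse of the neighbourhood's order. Most of it was Lox, a collagen crosslinking enzyme, with 4 and 2684 counts after OGD, against 4 and 3202 counts in controls. The microglial sum (4 of 10 names) was 15.4 and 48.0 CPM after OGD, against 30.2 and 46.6 CPM in controls. Of its loci, only Cd68 was not lower in the library numbered 1 of each group. It had 5.65 and 5.42 CPM after OGD, against 6.55 and 6.38 CPM in controls.

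Neuronal markers (4 of 10 names) summed to 110 and 120 CPM after OGD, against 89.5 and 120 CPM in controls. Among them Syn1, a synaptic vesicle protein, had 98 and 45 counts after OGD, against 2 and 1 counts in controls. The other neuronal loci had lower mean levels after OGD. Gria2 had 187 and 222 counts after OGD, against 223 and 275 counts in controls. For Rbfox3 these were 6 and 19 counts after OGD, against 19 and 20 counts in controls, and for Syt1 1 and 1, against 2 and 4. Oligodendrocyte lineage markers (3 of 10 names) came to 7.91 and 10.0 CPM after OGD, against 8.01 and 17.1 CPM in controls, with the myelin protein Mbp at 0 in 3 libraries. Endothelial markers rested on Pecam1 (1 of 6 names), at 0 and 2.50 CPM after OGD, against 1.46 and 0.797 CPM in controls. No marker locus passed an adjusted p of 0.05 in edgeR's test, and only Syn1 had an unadjusted p under 0.05. The shares over all tested loci were 0.0835% adjusted and 2.34% unadjusted. The part of these cell types in the neighbourhood's levels was not tested.

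**Figure D4:**
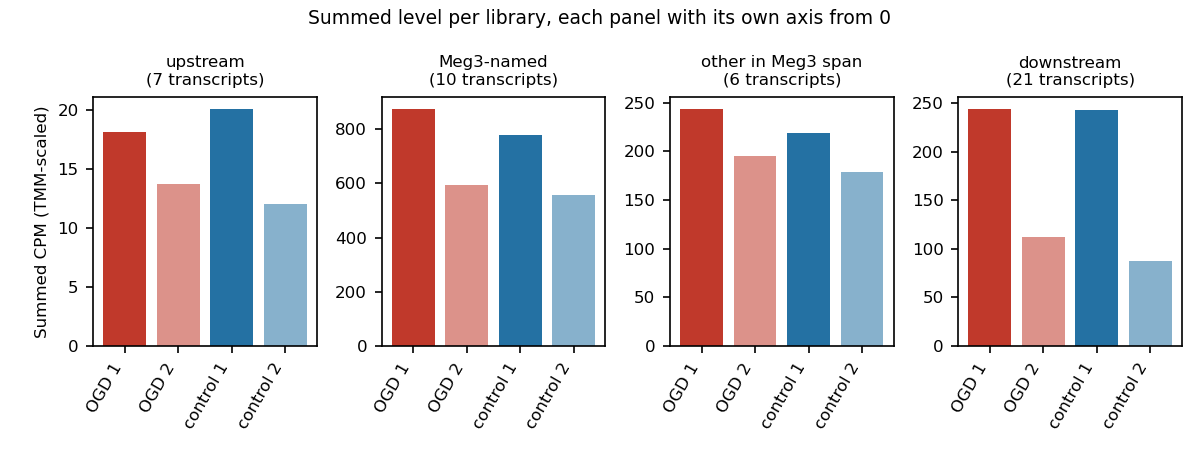
Summed CPM per library (bars from 0; each panel has its own axis) of the upstream, Meg3-named, other Meg3-span and downstream transcripts; OGD libraries are red and control libraries blue. In every panel the library numbered 1 stands above the library numbered 2 of its group, with the largest ratio between them downstream (244 and 112 CPM after OGD, 243 and 87.5 CPM in controls).

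**Figure D5:**
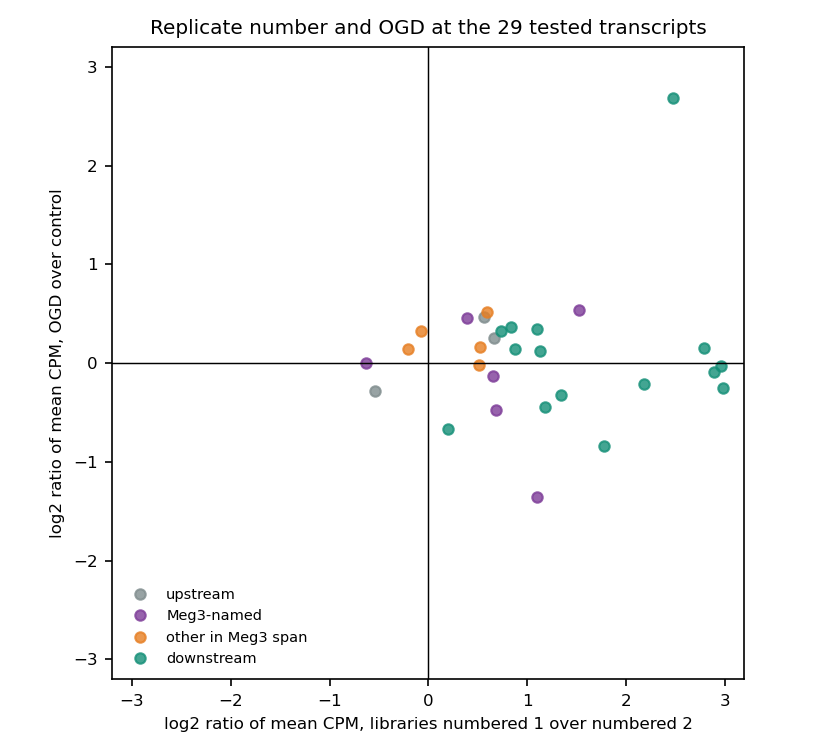
Log2 ratio of mean CPM of libraries numbered 1 over those numbered 2 (horizontal) against log2 ratio of OGD over control (vertical), both axes to the same scale, 1 point per tested transcript. The points spread to the right along the horizontal axis, and beeto.g is the point at the top.

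Among 561 loci outside the neighbourhood with a gene symbol and at least 50 CPM, those whose profile over the 4 libraries lay nearest to summed Meg3 were Ip6k2, Hnrnpdl, Npdc1, Rbm22 and Ppp1r10. Likeness was the root mean square distance of log2 CPM, each centred on its own mean, and was 0.0284, 0.0487, 0.0540, 0.0656 and 0.0801 in that order. The median of the candidates was 0.335. Ip6k2, an inositol hexakisphosphate kinase, had 85.5 and 57.6 CPM after OGD, against 77.2 and 56.6 CPM in controls, the same order of libraries as Meg3. The measure rests on 4 libraries.

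Other genes taken as imprinted were compared through a list of 76 names, of which 18 had a listed locus and 12 were tested. Imprinting was not measured here, and a gene of the list, such as Rb1, need not be imprinted in rat astrocytes. Of the 12, 6 had log2 fold changes above 0 and 6 below, with a median of -0.05, beside 49.7% above 0 and a median of -0.0016 over all loci. None passed an adjusted p of 0.05 in edgeR's or DESeq2's test, against 8 of 9579 loci in edgeR (0.0835%). At an unadjusted p of 0.05 there was 1 in edgeR and 0 in DESeq2, against 224 loci in edgeR (2.34%). That locus was Igf2, the fetal growth factor, with 13 and 16 counts after OGD, against 5 and 7 counts in controls, and a log2 fold change of 1.31 ± 0.50 (SE) with adjusted p = 1.00 in edgeR's test.

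Among the better counted loci of this list, Plagl1, a zinc finger factor, had 82 and 146 counts after OGD, against 99 and 169 counts in controls. Gab1, a docking protein of receptor tyrosine kinases, had 120 and 116 counts after OGD, against 122 and 142 counts in controls. Herc3 had 28 and 29 counts after OGD, against 18 and 14 counts in controls, without overlap, and its log2 fold change of 0.89 ± 0.35 (SE) had adjusted p = 1.00 in edgeR's test. The tetraspanin Cd81 had 39 and 47 counts after OGD, against 32 and 37 counts in controls, and overlapped on the scaled level. The Igf2 receptor Igf2r had 17 and 12 counts after OGD, against 24 and 17 counts in controls, and lay below controls without overlap on the scaled level. For the histone chaperone Nap1l4 these were 46 and 19 counts after OGD, against 33 and 48 counts in controls. The cell cycle regulator Rb1 had 23 and 22 counts after OGD, against 10 and 22 counts in controls. Besides Herc3 and Igf2r, Igf2 and Grb10 did not overlap on the scaled level, both with OGD above control. The other tested loci of the list overlapped. Over all tested loci, OGD lay above control without overlap at 14.0% and below at 14.0%.

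Of 22 names of DNA methylation and Polycomb factors, 9 had a listed locus and 6 were tested. Their log2 fold changes were above 0 at 5 and below at 1, with a median of 0.18, beside 49.7% above 0 and a median of -0.0016 over all loci. Of the 6, 0 passed an adjusted or an unadjusted p of 0.05 in edgeR's or DESeq2's test. Over all loci edgeR gave 8 of 9579 (0.0835%) adjusted and 224 (2.34%) unadjusted, so 0 of 6 does not set the list apart. Ezh2, the methyltransferase of PRC2, had 37 and 23 counts after OGD, against 29 and 23 counts in controls. The PRC2 cofactor Aebp2 had 924 and 844 counts after OGD, against 977 and 1001 counts in controls, and Trim28, which guards methylation at imprinted regions, had 85 and 92 counts after OGD, against 96 and 62 counts in controls.

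Of 27 names of the p53 pathway, 8 had a listed locus and 7 were tested, 4 above 0 and 3 below with a median of 0.03. In either test, 0 of the 7 passed an adjusted or an unadjusted p of 0.05. With shares over all loci of 0.0835% adjusted and 2.34% unadjusted in edgeR's test, 0 of 7 does not set this list apart either. The p53 gene itself (listed as Trp53) had 64 and 52 counts after OGD, against 60 and 58 counts in controls. Its ubiquitin ligase Mdm2 had 30 and 43 counts after OGD, against 51 and 55 counts in controls, and the p53 target Zmat3 had 3501 and 3854 counts after OGD, against 3974 and 4775 counts in controls. These loci are noncoding transcripts listed at protein genes, so the counts are not a measure of the messenger RNAs alone.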

How the data were processed

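The authors deposited 1 table per library holding raw read counts and, beside them, FPKM for the same 20524 transcripts, per the file headers. The submitters' processing notes name HISAT2 and StringTie and give no versions. Neither the counting program nor its strand setting is given in the sources used here. Those notes name mouse build mm9, whereas the tables carry rat identifiers, so their coordinates are printed without a build name. The deposited FPKM gave library totals of 24934040 and 25016962 for OGD libraries 1 and 2, and of 24949814 and 26371055 for control libraries 1 and 2, within 0.1%.

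Counts were tested per transcript, and per locus (transcripts of 1 name on 1 chromosome summed), across all listed transcripts with edgeR 4.0.16 in R 4.3.3 (filterByExpr, TMM, quasi-likelihood F test, Benjamini-Hochberg adjustment). Standard errors are the log2 fold change over the root of F, and 95% intervals are approximate. DESeq2 1.42.0, other scalings, filters, a replicate block and leaving out each library were alternatives. The scripts were tested on simulated data. The members, gene lists and cell type markers were chosen with earlier results of these data known. Named were all Meg3 transcripts, members with a symbol, an unadjusted p under 0.05 or 20 counts or more on average in a group, listed imprinted loci at that level, and the 5 loci most like Meg3; other transcripts and loci named were chosen after their values were seen.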

Additional observations from a re-analysis of the deposited data

How the results depend on the processing

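The neighbourhood had 0 called transcripts under every alternative, including sums per locus and windows of 0.5 and 2 Mb. The imprinted, methylation and Polycomb, and p53 lists had 0 called loci under the tests, scalings, filters, block and left-out libraries tried for them. Among all loci, edgeR's test with TMM and all 4 libraries called 8 of 9579 (0.0835%). Over all transcripts, calls numbered 1 in edgeR, 85 in DESeq2, 8 with totals implied by FPKM and 0 with the replicate block, and 0 to 0 with a library left out. The 1 call, syby (NONRATT031003.2), lies on chromosome X outside the neighbourhood. The labels do not say that equal replicate numbers pair the libraries, whose deviations from the group means correlated at 0.196 by number. With the block, the Meg3 log2 fold change was 0.13 (adjusted p = 0.885 in edgeR's test). The block gave 2 of 29 members an unadjusted p under 0.05, against 420 of 10892 transcripts: beeto.g at 2.73 ± 0.34 (SE, adjusted p = 0.480) and Meg3 transcript b at 0.45 ± 0.11 (adjusted p = 0.901). Without the filter on low counts, edgeR's test gave 3 of 43 members an unadjusted p under 0.05, against 519 of 19800 transcripts. The Meg3 value was 0.39 without its most counted transcript, 0.14 over all transcripts in the span (an alternative added after seeing the data) and -0.15 to 0.41 with a library left out, the range over all 13 alternatives, with adjusted p of 0.885 to 1.00.

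Of 249 values of 23 named members under 11 alternatives, 218 kept their direction and side of the threshold, 31 changed sign and 0 newly passed; the cause was not tested. Meg3 transcript d (NONRATT024626.2) was -0.017 without TMM factors and -8.6e-05 with totals implied by FPKM, and byto (NONRATT024640.2) 0.17 with the block. With a library left out, log2 fold changes spanned, at Meg3 transcripts, -0.32 to 2.99 (g), -0.47 to 0.24 (i), -0.32 to 0.43 (d) and -1.52 to 0.14 (h). In the span they were -0.029 to 0.36 (bavu) and -0.28 to 0.26 (byvu), and upstream -1.47 to 0.38 (Slc25a29). Downstream they were -0.18 to 1.15 (LOC691169 c), -1.06 to 2.23 (byto), -0.10 to 0.98 (barto), -1.14 to 0.27 (buto), -1.54 to 0.70 (n12), -0.19 to 0.77 (beeto.e), -1.56 to 0.094 (beeto.k), -1.50 to 2.53 (n14), -0.49 to 0.85 (n18), -4.39 to 1.27 (n16) and -1.07 to 0.55 (gyvu). Depth limits the members under about 20 counts, where 3 counts are 1.10 to 1.25 CPM.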

Other observations

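Of 31 gene names of the wider region looked for, 7 had a listed locus. Dlk1, Rtl1, Dio3, Rian and Mirg matched none by name and were not analysed under these names. Whether downstream transcripts listed under other names belong to any of these genes was not tested. Of those lying outside the neighbourhood, Traf3, an adaptor of tumour necrosis factor receptors, had 4 and 448 counts in OGD libraries 1 and 2, against 338 and 351 counts in control libraries 1 and 2, so that OGD library 1 stood apart from the other 3. Mok, a protein kinase, had 20 and 15 counts after OGD, against 20 and 4 counts in controls, and Cinp and Wdr20 had at most 14 counts in any library. Of the 5 names tested, 0 passed an adjusted or an unadjusted p of 0.05 in edgeR's test, against 0.0835% and 2.34% of all tested loci.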
